A study of Mus musculus with 1 sample.

Results

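The genes of the proteasome were read in RNA of cells described as c-kit+ bone marrow (BM) cells. They were taken as the protein-coding genes whose GENCODE M21 symbol begins with Psma, Psmb, Psmc, Psmd or Psme followed by a digit, which gave 45 of the 54532 genes in the table. The rule uses names only, and no measured value entered it. The data examined are 1 library of the Ctrl group, from C57BL/6 mice whose genotype is given as wild type. The labels describe a gate for cells with c-kit and without lineage markers or Sca-1. Neither the age of these mice nor how many were pooled is given for this library. The paper's deficient mice carry floxed *Gadd45g* alleles deleted by *Vav-Cre*, which acts in blood cells, and whether Ctrl mice carried the Cre transgene is not stated. The library of *Gadd45g*-deficient mice with MPN was not analysed here. There are thus no replicates and no test between groups. Levels are in FPKM, fragments on a gene per kilobase of its length, scaled to the fragments of the library. A length in FPKM here counts every base covered by any annotated exon of the gene. Since genes of one complex differ in how many exon bases belong to minor transcripts, levels were also recomputed per length of the principal transcript, the one APPRIS marks as the main coding transcript, and per coding length. Coding length is that of the longest annotated coding sequence of the gene. Both recomputed levels divide all fragments on the gene's exons, also those outside the shorter length. They are therefore not levels on those bases alone. Every interval given is an exact 95% binomial interval from recovered whole fragments, and covers counting error only.

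The proteasome degrades proteins tagged with ubiquitin. Its core particle is a barrel of alpha and beta rings, with the proteolytic sites inside the beta rings. A regulatory particle caps the barrel: its base holds a ring of ATPases that unfold the substrate, and its lid removes ubiquitin. In cells exposed to interferon gamma, and constitutively in many blood cells, the catalytic beta subunits *Psmb5*, *Psmb6* and *Psmb7* can be replaced during assembly by *Psmb8*, *Psmb9* and *Psmb10*, which gives the immunoproteasome and alters the peptides offered on MHC class I. Other caps, the activators, open the barrel without ATP.

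The library held fragments on genes of several cell types. Of the 5 progenitor markers, *Mpo* had 434 FPKM and the other 4 ran from 5.22 to 16.5 FPKM, with *Kit* at 7.17 FPKM. The 7 mature neutrophil markers ran from 194 to 26677 FPKM, the 5 erythroid markers from 471 to 25466 FPKM, the 4 B cell markers from 17.8 to 173 FPKM, the 4 macrophage markers from 29.9 to 51.5 FPKM and the 3 T cell markers from 2.62 to 8.55 FPKM. None of these markers was at 0. *Kit* was below 8.66 FPKM, the median of protein-coding genes at 1 FPKM or more. All the neutrophil, erythroid, B cell and macrophage markers were above *Kit*, and the T cell markers lay on either side of it. The gate in the labels leaves out cells with lineage markers, and how these transcripts came to be in the library was not tested. The levels below are of the whole library and cannot be assigned to c-kit+ progenitors alone. Macrophages and lymphocytes are rich in immunoproteasome, and their part in the levels given here was not tested. In a bulk library, fewer cells of a type and less RNA per cell cannot be told apart.

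The catalytic subunits are made with a leader that is cut off at a threonine, which then becomes the first residue of the mature chain and carries out proteolysis. The bases coding for the start of the mature chain were read from GENCODE M21 transcripts (GRCm38) and are shown because they set the interchangeable pairs side by side. Each line holds 36 bases of the coding strand, with the codon of the catalytic threonine in capitals.
Psmb5: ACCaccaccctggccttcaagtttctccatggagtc
Psmb8: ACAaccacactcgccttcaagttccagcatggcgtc
Psmb6: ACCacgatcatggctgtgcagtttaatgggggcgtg
Psmb9: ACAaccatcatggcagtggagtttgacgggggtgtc
Psmb7: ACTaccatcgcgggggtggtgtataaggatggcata
Psmb10: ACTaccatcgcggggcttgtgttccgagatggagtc
Within the exchange pairs, 29 of 36 bases were the same for *Psmb5* and *Psmb8*, 28 for *Psmb6* and *Psmb9* and 26 for *Psmb7* and *Psmb10*. Between the constitutive genes, 18 to 22 bases were the same. Over whole coding sequences, global alignment gave 63.7% identity for *Psmb5* and *Psmb8*, 61.6% for *Psmb6* and *Psmb9* and 62.2% for *Psmb7* and *Psmb10*, against 45.0% to 49.9% for the other pairings of a constitutive gene with an immunosubunit gene. *Psmb9* and *Psmb8* lie on chromosome 17 (34181987 to 34187764, reverse strand, and 34197721 to 34201454, forward strand), with 9956 bases between them. *Psmb10* is elsewhere (chromosome 8, 105935735 to 105938444, reverse strand).

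Nearly all proteasome genes were detected in the Ctrl library. Of the 45 genes, 44 reached 1 FPKM and 41 reached 10 FPKM, and the exception at 1 FPKM was *Psmb11*. Over all 21995 protein-coding genes the shares were 46.8% at 1 FPKM and 21.2% at 10 FPKM. The 31 constitutive subunits of the core, base and lid had a median of 38.1 FPKM, and the protein-coding genes at 1 FPKM or more had a median of 8.66 FPKM. Of the 45, 30 were among the top 10% of protein-coding genes. Together they held 0.393% of the summed FPKM.

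**Figure D1:**
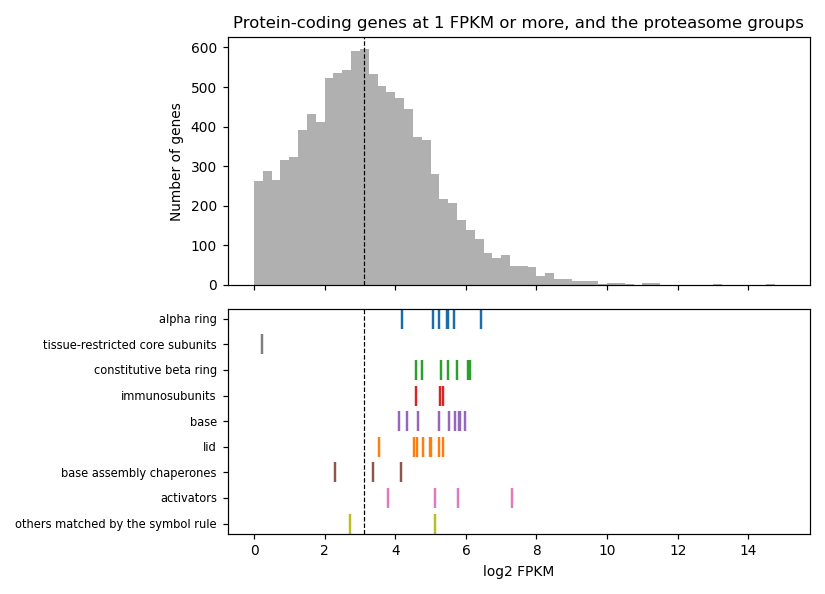
The upper panel counts protein-coding genes at 1 FPKM or more by log2 FPKM, and the lower panel marks each proteasome gene at 1 FPKM or more by group, with the median of the upper panel, 8.66 FPKM, as a dashed line in both. All 31 subunits of the alpha ring, constitutive beta ring, base and lid lie to the right of that line, while 1 assembly chaperone, *Psmc3ip* and *Psma8* lie to its left.

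The alpha ring, through whose pore substrates enter, had a median of 44.6 FPKM over its 7 genes. *Psma6* was highest at 85.4 FPKM (interval, 81.3 to 89.6), and *Psma3* was lowest at 18.3 FPKM (interval, 17.2 to 19.4). The ratio of these was 4.66 (interval, 4.32 to 5.04), and per coding length it was 1.53 (interval, 1.42 to 1.65). *Psma6* led in FPKM but not at the other lengths, where *Psma7* was above it, with 151 against 101 per principal transcript and 185 against 143 per coding length. The others lay in between, with *Psma5* at 50.6 FPKM, *Psma7* at 44.8 FPKM, *Psma1* at 44.6 FPKM, *Psma4* at 38.1 FPKM and *Psma2* at 33.4 FPKM. Of the 6 neighbouring pairs in this order, only *Psma7* and *Psma1* had overlapping intervals. Per coding length *Psma3*, at 93.2, was not the lowest, since *Psma5* had 92.5. In FPKM the low level of *Psma3* stood beside the level of a processed copy. Gm13835, annotated as a processed pseudogene on chromosome 6 (31141979 to 31142663), had 55.3 FPKM from 598 recovered fragments, and *Psma3* had 1125 fragments. The copy is 685 bases long, and all of its 636 50-base windows occur in *Psma3* without a mismatch. These are 15.4% of the windows of *Psma3*. Fragments of one could therefore be placed on the other or dropped. How the 1723 fragments on the pair were divided was not tested. The level of *Psma3* and its ratio to *Psma6* are thus less certain than their intervals, which cover counting error only. *Psma5* likewise shares 49.1% of its windows with the processed pseudogenes Gm8394 and Gm12989.

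The constitutive beta ring had a median of 45.0 FPKM over 7 genes. *Psmb4* led at 68.8 FPKM (interval, 65.9 to 71.8), followed by *Psmb5* at 66.8 FPKM (interval, 62.6 to 71.2), and these intervals overlapped. *Psmb2* had 54.1 FPKM, *Psmb3* 45.0 FPKM, *Psmb6* 39.1 FPKM, *Psmb1* 27.2 FPKM and *Psmb7* 23.9 FPKM. In FPKM the catalytic genes were spread from near the top of the ring's order to its bottom, but this order changed with the length. Per coding length the 3 catalytic genes were the lowest of the ring, at 75.8 for *Psmb5*, 98.2 for *Psmb7* and 102 for *Psmb6*, with the structural subunits from 108 to 173. Per principal transcript *Psmb5* and *Psmb7* were lowest, at 66.8 and 70.3. *Psmb5* shares 54.1% of its 50-base windows with other genes, most of them with the processed pseudogene Gm3375, which itself had 2.31 FPKM. The SD of log2 FPKM over the 14 core genes was 0.61, against 1.85 over all protein-coding genes at 1 FPKM or more. For comparison, 77 of 78 mitochondrial ribosomal protein genes reached 1 FPKM, and their SD was 1.12 around a median of 9.98 FPKM. These spreads describe 1 library and were not tested.

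**Figure D2:**
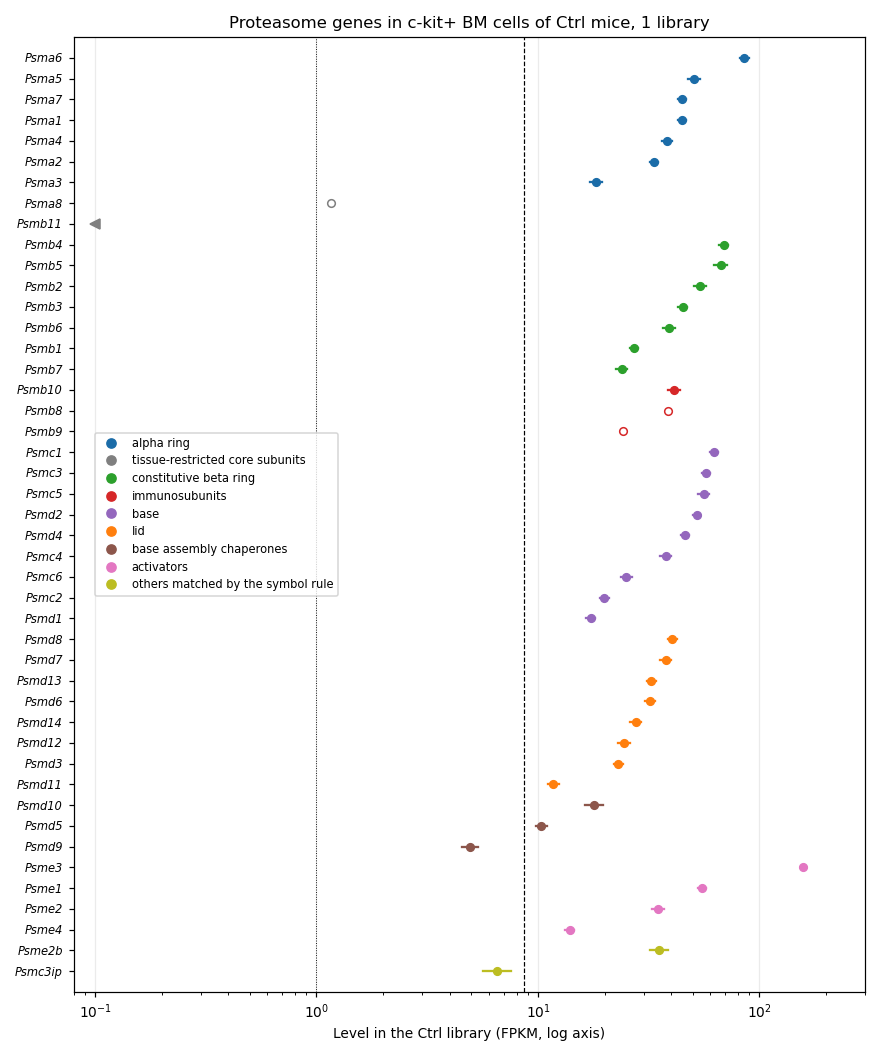
Level of each of the 45 genes in FPKM on a log axis, grouped by place in the complex and ordered by level within a group, with exact 95% intervals as bars. Open circles mark the 3 genes whose fragments could not be recovered as a whole number, the triangle marks *Psmb11*, listed at 0, the dotted line is 1 FPKM and the dashed line the median of detected protein-coding genes, 8.66 FPKM; *Psme3* stands highest at 158 FPKM.

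The base had a median of 46.2 FPKM over 9 genes. Its 6 ATPases ran from *Psmc1* at 62.4 FPKM, *Psmc3* at 57.3 FPKM and *Psmc5* at 56.1 FPKM through *Psmc4* at 37.8 FPKM and *Psmc6* at 25.1 FPKM down to *Psmc2* at 19.96 FPKM. The large scaffold subunits differed, with *Psmd2* at 52.0 FPKM and *Psmd1* at 17.3 FPKM, a ratio of 3.01 (interval, 2.85 to 3.18) that was 1.76 both per principal transcript and per coding length. The ubiquitin receptor *Psmd4* had 46.2 FPKM. The lid had a median of 29.7 FPKM over 8 genes, from *Psmd8* at 40.5 FPKM to *Psmd11* at 11.7 FPKM. This was below the median of the base, as it was per principal transcript (53.6 against 59.4), but per coding length the order turned (80.1 for the lid, 75.2 for the base). Its other structural subunits were *Psmd13* at 32.4 FPKM, *Psmd6* at 31.9 FPKM, *Psmd12* at 24.4 FPKM and *Psmd3* at 23.0 FPKM. *Psmd14*, the deubiquitinase of the lid, had 27.6 FPKM, and *Psmd7*, its inactive partner, had 37.7 FPKM. Per principal transcript their ratio was 0.935 with an interval of 0.865 to 1.01, so at that length no difference could be told from counting error.

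Genes that assist assembly but are not in the finished particle were also read. The base assembly chaperones had 17.9 FPKM for *Psmd10*, 10.3 FPKM for *Psmd5* and 4.95 FPKM for *Psmd9*. Per principal transcript they had 18.4, 17.0 and 13.8, and per coding length 38.0, 49.5 and 53.8, which reverses their order. Of the exon bases of *Psmd9*, 25.5% lie under an exon of a gene on the other strand. Outside the symbol rule, 11 genes listed for assembly and for subunits or partners with other names all reached 1 FPKM, with a median of 14.9 FPKM. Among them the core chaperones *Psmg2*, *Psmg4*, *Psmg1* and *Psmg3* had 28.3, 18.8, 9.66 and 3.0 FPKM, and *Pomp*, needed to mature the beta rings, had 16.1 FPKM. *Sem1*, a small lid subunit, had 28.0 FPKM, and *Adrm1*, a ubiquitin receptor of the base, had 17.0 FPKM. Per principal transcript *Psmg2*, *Psmg4*, *Psmg1* and *Psmg3* had 46.4, 18.8, 12.4 and 9.83. At that length *Pomp* had 53.1, *Sem1* 67.5 and *Adrm1* 49.4.

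Of the activators, *Psme3* was the highest of all 45 genes. It encodes the nuclear ring activator (chromosome 11, 101316213 to 101323537, forward strand). Its level was 158 FPKM from 7351 fragments (interval, 154 to 162), and 279 protein-coding genes were above it. *Psme3* shared no 50-base window with another gene and no exon base with a neighbour. *Psme1*, a chain of the interferon-inducible ring activator, had 55.1 FPKM, and *Psme2*, the other chain, had 34.9 FPKM. *Psme3* was 2.87 times *Psme1* in FPKM (interval, 2.73 to 3.02), 1.597 times per principal transcript (interval, 1.52 to 1.68) and 3.75 times per coding length. *Psme1* was 1.58 times *Psme2* (interval, 1.46 to 1.71). This ratio leaves out any fragments of *Psme2* counted on its copy *Psme2b*, which holds 28.3% of the 50-base windows of *Psme2*. *Psme4*, a single large chain that caps the core particle, had 13.9 FPKM.

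*Psme2b*, annotated as a protein-coding copy of *Psme2* on another chromosome, had 35.1 FPKM, 1.01 times *Psme2* (interval, 0.899 to 1.12). Per principal transcript it was 0.549 times *Psme2* (interval, 0.490 to 0.613), and per coding length 0.477 times. The coding sequences of these genes were the same at 712 of 717 bases, and 68.7% of the 50-base windows of *Psme2b* occur in *Psme2*. How the 1436 fragments on the pair were divided between them depends on how near-identical sequence was counted, and the level of each is uncertain. The other gene caught by its symbol alone was *Psmc3ip*, a factor of meiotic recombination that is not a proteasome subunit, at 6.55 FPKM. *Psma8*, the alpha subunit of testis, had 1.16 FPKM, just above the detection level. *Psmb11*, the beta subunit of the thymic cortex, is listed at 0 (interval, 0 to 0.0488 FPKM), and 3 fragments would correspond to 0.0397 FPKM.

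All 3 immunosubunit genes were detected, and their place beside the genes they replace depended on the length used. They ran from 24.2 to 41.2 FPKM, against 23.9 to 66.8 FPKM for *Psmb5*, *Psmb6* and *Psmb7*. Per principal transcript *Psmb10* (53.6) and *Psmb9* (65.6) lay below the range of those genes (66.8 to 91.7), and per coding length *Psmb8* (158) and *Psmb9* (135) lay above it (75.8 to 102). In FPKM, *Psmb10* had 41.2 (interval, 38.8 to 43.7), *Psmb8* had 38.8 and *Psmb9* had 24.2, with a median of 38.8 for the 3 genes against 39.1 for *Psmb5*, *Psmb6* and *Psmb7*. Pair by pair, *Psmb8* was 0.580 times *Psmb5*, *Psmb9* was 0.620 times *Psmb6*, and *Psmb10* was 1.73 times *Psmb7* (interval, 1.59 to 1.87). The fragments of *Psmb8* and *Psmb9* came out as 2068.6 and 1399.4 and not as whole numbers, so their ratios carry no interval.

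The direction of these ratios also depended on the length that fragments were divided by. The exon bases of *Psmb8* number 3381, but its principal transcript has 1628. For *Psmb5* the numbers are 899 and 899. With fragments divided by the length of the principal transcript, *Psmb8* was 1.21 times *Psmb5*, *Psmb9* was 0.715 times *Psmb6*, and *Psmb10* was 0.762 times *Psmb7* (interval, 0.702 to 0.826). Per coding length the ratios were 2.09, 1.32 and 0.874 in the same order. Neither *Psmb8* nor *Psmb10* was therefore above or below its partner at every length. *Psmb9* was below *Psmb6* per exon base and per principal transcript, and above it per coding length. Fragments outside the coding sequence stay in the values per coding length, which therefore rise with the noncoding exon bases that are read. The immunosubunits as a group held 44.5% of the level of the 6 catalytic genes in FPKM, 46.6% per principal transcript and 57.8% per coding length. *Psmb8*, *Psmb7* and *Psmb9* also share 14.7%, 11.8% and 5.79% of their exon bases with genes on the other strand. For *Psmb7* that gene is *Nek6*, and for *Psmb9* it is *Tap1*. How fragments on these overlaps were counted was not tested, so the ratio of each of the pairs carries this limit. Of its sequence windows, *Psmb5* shares 54.1% with other genes, against 1.05% for *Psmb6* and 0.227% for *Psmb8*. *Psmb7*, *Psmb9* and *Psmb10* share no sequence window. How fragments in the shared windows of *Psmb5* were counted was not tested. The ratio of *Psmb8* to *Psmb5* and the immunosubunit shares are thus less certain at every length.

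**Figure D3:**
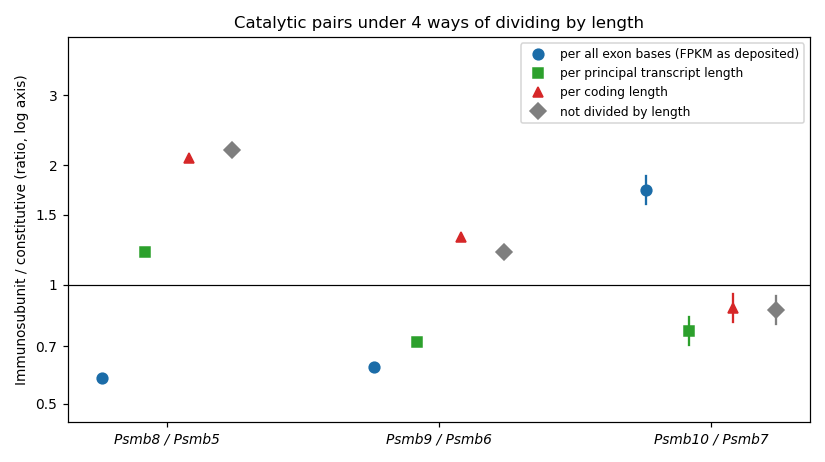
Ratio of each immunosubunit to the constitutive subunit it replaces, on a log axis, with fragments divided by all exon bases, by the principal transcript, by coding length, or not divided, and exact 95% intervals as bars for *Psmb10* / *Psmb7*, where fragments were whole. The line marks a ratio of 1: *Psmb8* / *Psmb5* runs from 0.580 to 2.18, and *Psmb10* / *Psmb7* from 1.73 down to 0.762.

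The same change of length moved other members. Exon bases were 1.64 times the principal transcript at the median over the 45 genes and 1.35 times over protein-coding genes at 1 FPKM or more, with the largest factor, 3.36, for *Psma7*. Per principal transcript *Psma7* rose from 44.8 to 151 and *Psmb3* from 45.0 to 135 on the FPKM scale, which put them at places 2 and 3 among the 45. *Psme3*, at 175, was the highest at either length. Of the 31 constitutive subunits, 27 lay within 2-fold of their median in FPKM, with *Psma6*, *Psma3*, *Psmd1* and *Psmd11* outside. Per principal transcript the count was again 27, but the genes outside were *Psma7*, *Psma3*, *Psmb3* and *Psmd11*. Per coding length the count was 30, with *Psmd1* outside. The place of *Psma3* in these counts may depend on how fragments shared with its copy Gm13835 were counted.

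**Figure D4:**
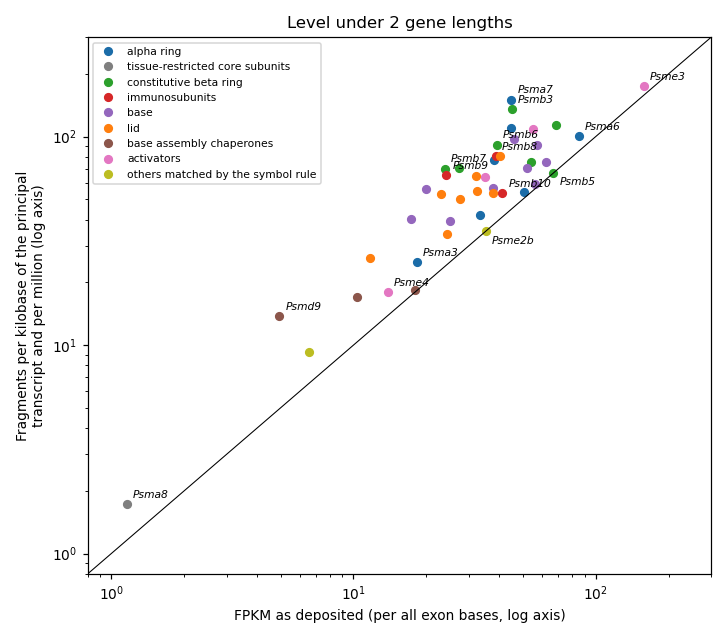
Each point is 1 of the 44 genes above 0, with FPKM as deposited on the x axis and FPKM recomputed per principal transcript on the y axis, both on log axes, and the line marks equal values. *Psmb5*, *Psme2b* and *Psme3* stay near the line, while *Psma7* and *Psmb3* rise to 151 and 135.

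Genes that act with the immunoproteasome were read in the same library, which does not show whether they were expressed in the same cells. All 7 genes listed for peptide supply to MHC class I reached 1 FPKM, led by *B2m*, the light chain, at 1761 FPKM. The peptide transporter genes *Tap1* and *Tap2* had 29.4 and 21.5 FPKM. Of the genes listed for the interferon gamma response, *Ifngr1*, a receptor chain, had 60.7 FPKM, *Irf8* 46.5 FPKM and *Irf1* 26.4 FPKM, while *Ifng* itself had 1.86 FPKM from 38 fragments. All 5 genes listed for the transcriptional regulation of proteasome genes reached 1 FPKM. The factor *Nfe2l1*, which raises proteasome gene transcription when proteasome activity falls, had 21.6 FPKM, and *Ddi2*, the protease that releases it, had 12.7 FPKM.

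RefSeq promoters of GRCm38, from 250 bases before to 50 bases after a start, were found for 38 of the 45 genes (41 promoters). The core of the antioxidant response element, which *Nfe2l1* binds, was searched as TGACNNNGC on both strands. It occurred in 6 of 41 promoters (*Psmb5*, *Psmb6*, *Psmc6*, *Psmd12*, *Psmd9* and *Psme4*), or 14.6%, in 12.4% of all promoters and in 14.6% of promoters of protein-coding genes at 1 FPKM or more. An interferon regulatory factor element, GAAA followed by any 2 bases and GAAA again, on both strands, occurred in 4 of 41 (*Psmb3*, *Psmd4*, *Psmd9* and *Psme1*), or 9.76%, against 3.44% and 3.39%. The CCAAT box occurred in 36.6%, against 37.4% and 38.0%. None of the matches shown next overlaps a match of another of these motifs. Of these matches, 3 are shown because they lie in the promoters of catalytic subunits and of an interferon-inducible activator, each on the gene's strand with the matched letters in capitals. The *Psmb5* and *Psmb6* matches end 39 bases and 1 base before the start, and the *Psme1* match begins 10 bases after it.
Psmb5, chr14:54618025-54618051, reverse strand: gtgaagttgTGACGTCGCggcgttgcc
Psmb6, chr11:70525339-70525365, forward strand: taaagagagTGACGGAGCgctttacga
Psme1, chr14:55578494-55578521, forward strand: gagctgtgcTTTCGCTTTCccttcccgc
The promoters of *Psmb8*, *Psmb9* and *Psmb10* held neither of these elements in the window searched. A match is a description of letters and not of binding.

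Members also lay close to each other in the genome. Besides *Psmb9* and *Psmb8*, *Psme1* and *Psme2* lie on chromosome 14 with 5911 bases between them, and their levels were 55.1 and 34.9 FPKM. *Psmb5* and *Psmb11* lie on the same chromosome with 3410 bases between them on opposite strands, one at 66.8 FPKM and the other listed at 0.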

How the data were processed

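RNA of cells described as c-kit+ BM cells was sequenced (Illumina HiSeq). The authors deposited FPKM values for 54532 Ensembl genes, and their processing notes name HISAT2 2.0.5, featureCounts 1.5.0-p3 and mm10. The annotation, strandedness and treatment of fragments with several matches are not given in the sources used here. Of the genes, 54495 were matched by identifier to GENCODE M21 (GRCm38), which gave symbols, coordinates and lengths. FPKM times exon length came out as whole multiples of 1 step, within 0.01, for 96.4% of the 21313 genes above 0. The step corresponds to a total of 15783890 fragments, and 41 of 44 members above 0 were whole. Recovery and interval coverage were tested on simulated independent counts. Those counts hold neither PCR duplicates nor fragments shared between genes, so the test does not cover these.

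Levels were compared in FPKM, with 1 FPKM as detection level, and ratios were given exact binomial intervals. PCR duplicates are not independent molecules. The principal transcript is the best APPRIS class, then the longest. Shared sequence was counted as 50-base windows found in transcripts of other genes. All members are accounted for, and other genes come from lists written by name. The members and lists were chosen with earlier results of these data known. Python 3.11.15, numpy 2.4.6, pandas 2.3.3, scipy 1.17.1, biopython 1.88 and matplotlib 3.10.9 were used.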

Additional observations from a re-analysis of the deposited data

How the results depend on the processing

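No paired analysis was possible because only 1 library was examined. The length of the principal transcript was added as an alternative after seeing the data. With 1 library, depth limits only the counting error, and how far mice differ is not known. The number of detected members, 44, stayed within 1.5 times at 0.1 FPKM (44), 10 FPKM (41) and 10 recovered fragments (44). Group medians in FPKM moved with the length used, by construction, and the order of base and lid reversed per coding length. Per coding length they were 143 for the alpha ring, 108 for the constitutive beta ring, 75.2 for the base, 80.1 for the lid, 124 for the activators and 135 for the immunosubunits. Per principal transcript they were, in that order, 77.4, 75.9, 59.4, 53.6, 86.7 and 65.6. Without the 10 most abundant genes in the total, a common factor of 1.09, the medians of the alpha ring, beta ring, base and immunosubunits were 48.6, 49.1, 50.4 and 42.3. Those of the lid and the activators were 32.5 and 49.1. As geometric means, the alpha ring had 41.2, the base 37.8 and the immunosubunits 33.8. The constitutive beta ring had 43.3, within the counting interval of its middle gene. The lid had 27.1 and the activators 45.3. These groups have no single middle gene, so no counting interval of 1 gene applies to their medians. Keeping only members at 1 FPKM or more changed no median. The ratio of *Psmb8* to *Psmb5*, 0.580, was 2.09 per coding length, 1.21 per principal transcript and 2.18 without division by length. Each of these values may also depend on how fragments that *Psmb5* shares with other genes were counted, which was not tested. The ratio of *Psmb9* to *Psmb6*, 0.620, was 1.32, 0.715 and 1.21, and that of *Psmb10* to *Psmb7*, 1.73, was 0.874, 0.762 and 0.861. A pseudocount of 1 FPKM left all 3 ratios on their side of 1. The SD of log2 levels in the core particle, 0.61, was 0.44 per coding length, 0.68 per principal transcript and 0.43 without division. For *Psmb8* the nearest length that gives a whole number of fragments is 3344 bases, with 2046 fragments, and for *Psmb9* it is 3659 bases, with 1399 fragments.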
